A study of Mus musculus with 2 samples.

Results

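The genes of the NMDA receptor subunits are Grin1, Grin2a, Grin2b, Grin2c, Grin2d, Grin3a and Grin3b. They were taken by name as the complete family, 7 of the 21911 protein-coding gene symbols in the GENCODE M21 annotation. No measured value was used to choose them, although earlier results of these data were known. Chromatin accessibility was measured by DNase-seq, which cuts open DNA in nuclei with the enzyme DNase I and sequences the cut ends. The tissue was the left cerebral cortex of 2 female mice of strain B6CASTF1/J, a cross of C57BL/6J with CAST/EiJ, taken at 14 days of age, with no treatment named in the labels. Both libraries belong to 1 group: the labels call them biological replicates 1 and 2 and give each an animal number, but cite 1 donor record for both. No condition was compared, so there is no test and no p-value, and ± marks the SD over n = 2 libraries.

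Most NMDA receptors are glutamate-gated cation channels. They pass most current when glutamate and a co-agonist, glycine or D-serine, are bound and depolarisation has relieved the block of the pore by magnesium. Grin1 encodes GluN1, the obligatory subunit that binds the co-agonist. Grin2a to Grin2d encode the GluN2 subunits, which bind glutamate and set the channel's kinetics, and Grin3a and Grin3b encode the glycine-binding GluN3 subunits. In rodent forebrain, GluN2B predominates around birth and GluN2A increases in the first postnatal weeks. GluN2C is best known from cerebellar granule cells, GluN2D from the early brain, brainstem and interneurons, GluN3A from the juvenile forebrain and GluN3B from motor neurons.

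A peak of DNase cleavage is called a DNase I hypersensitive site (DHS). Peaks of both libraries that overlapped were joined into 1 shared DHS. A promoter counted as accessible where both libraries had a peak reaching within 1 kb of an annotated start of the gene. Peak height is the authors' deposited signal, which has no stated unit. It behaved as a whole number of steps in each library, 0.00771 per step in replicate 1 and 0.00498 in replicate 2. The read depth is unknown, and replicate 2 had 175597 peaks against 90059 in replicate 1, with 78165 shared DHSs. In a tissue sample, an open site in few cells and a weakly open site in many cells cannot be told apart. The labelled tissue was checked against marker genes: all 5 pan-neuronal and all 6 cortical glutamatergic markers had an accessible promoter, as did 3 of 6 interneuron, 3 of 5 astrocyte, 4 of 6 oligodendrocyte lineage, 1 of 4 microglial and 0 of 4 endothelial markers. None of 6 hindbrain and spinal cord markers had a promoter peak in either library. Of 4 cerebellar granule neuron markers, 3 had an accessible promoter and Gabra6 had no peak. By the same rule 62.7% of all protein-coding genes were accessible, and counts near that share say little about the tissue. The marker lists were chosen with earlier results of these data known.

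Of the 7 subunit genes, 5 had an accessible promoter in both libraries: Grin1, Grin2a, Grin2b, Grin2d and Grin3a. Grin2c and Grin3b had no promoter peak in either library. Among all protein-coding genes 62.7% were accessible by the same rule, so the share in the family was near that background. The same 5 genes had footprints in promoter peaks of both libraries, beside 60.5% of all protein-coding genes. A footprint is a stretch of a few bases that the authors called as protected from cutting, as happens where a protein sits on the DNA.

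The sequences of the strongest promoter DHSs are shown because they carry the footprints that both libraries share. Each is from GRCm38 (mm10) on the gene's strand, 5′ to 3′, and capitals mark bases inside footprints of both libraries. All 5 genes lie on the minus strand. The Grin1 stretch is chr2:25319188-25319360, the part of its DHS upstream of the most 5′ start. The Grin2a stretch, chr16:9993741-9994000, and the Grin2b stretch, chr6:136172161-136172460, lie in introns of the longest coding transcript. The Grin2d stretch is chr7:45866041-45866300, centred in a coding exon. The Grin3a stretch, chr4:49845745-49845980, lies upstream of the most 5′ start.
Grin1: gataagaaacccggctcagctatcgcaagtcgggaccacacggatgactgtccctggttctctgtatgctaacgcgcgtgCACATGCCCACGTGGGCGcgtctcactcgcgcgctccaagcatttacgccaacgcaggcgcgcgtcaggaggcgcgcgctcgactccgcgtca
Grin2a: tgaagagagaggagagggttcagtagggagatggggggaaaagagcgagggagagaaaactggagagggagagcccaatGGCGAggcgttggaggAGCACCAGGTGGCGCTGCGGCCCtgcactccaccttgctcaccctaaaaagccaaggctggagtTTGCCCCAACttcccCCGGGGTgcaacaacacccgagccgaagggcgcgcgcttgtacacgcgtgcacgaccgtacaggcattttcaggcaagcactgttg
Grin2b: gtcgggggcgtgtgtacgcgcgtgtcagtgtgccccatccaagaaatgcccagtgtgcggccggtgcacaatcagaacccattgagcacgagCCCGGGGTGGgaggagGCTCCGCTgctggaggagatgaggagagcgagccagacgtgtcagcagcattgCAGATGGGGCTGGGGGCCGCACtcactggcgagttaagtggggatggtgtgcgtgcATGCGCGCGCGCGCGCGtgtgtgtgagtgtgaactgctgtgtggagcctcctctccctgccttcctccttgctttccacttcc
Grin2d: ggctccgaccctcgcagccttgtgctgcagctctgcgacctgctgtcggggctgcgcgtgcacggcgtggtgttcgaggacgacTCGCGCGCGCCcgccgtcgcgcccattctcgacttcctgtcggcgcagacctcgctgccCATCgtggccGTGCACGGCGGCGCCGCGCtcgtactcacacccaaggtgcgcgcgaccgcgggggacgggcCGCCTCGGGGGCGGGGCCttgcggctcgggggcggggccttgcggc
Grin3a: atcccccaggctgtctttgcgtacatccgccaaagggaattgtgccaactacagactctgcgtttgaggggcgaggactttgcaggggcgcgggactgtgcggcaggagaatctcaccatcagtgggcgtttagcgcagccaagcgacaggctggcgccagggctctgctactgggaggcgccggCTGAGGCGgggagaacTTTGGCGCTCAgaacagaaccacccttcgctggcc

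Grin1, the obligatory subunit, had the highest promoter signal of the family in both libraries, 3.34 in replicate 1 and 3.90 in replicate 2 (3.62 ± 0.400, n = 2), or 433 and 784 steps. The peak lay at the cluster of starts at the 5′ end of the gene, which spans chr2:25291181-25319187. Among accessible protein-coding genes, whose median promoter signals were 2.51 and 2.13 in the libraries, this mean stood at percentile 70.5. Within the peak, 1 GC box (GGGCGG, the kind of site that Sp1-type factors bind) lay wholly inside a footprint of each library. It is shown with 8 bases on either side, chr2:25319166-25319187, minus strand, capitals again marking footprints of both libraries.
Grin1 GC box: ggaagCGGGGGCGGTGggaggg

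A pair of weaker shared DHSs followed inside Grin1. The DHS at chr2:25317941-25318480 in intron 1 gave 0.686 and 1.32, and the one at chr2:25318660-25318800 in coding exon 1 gave 0.640 and 0.538. Replicate 2 had 2 more promoter peaks that replicate 1 lacked, 1 of 0.976 at a start of non-coding transcripts inside the gene and 1 of 0.777 upstream. The Grin1 promoter thus held 3 peaks in replicate 1 and 5 in replicate 2. There were 5 and 22 footprints inside them, of which 5 and 18 lay in the promoter window. The main peak and both weaker sites downstream of it were thus called in both libraries.

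Grin2a, whose GluN2A subunit is the adult-type glutamate-binding subunit, had a broad promoter with several peaks. Its highest promoter signal was 1.69 in replicate 1 and 1.46 in replicate 2 (1.57 ± 0.162), but these values come from different peaks. The DHS at chr16:9993661-9994020 gave 1.69 and 1.21, and the DHS at chr16:9995281-9995880, over the most 5′ start, gave 1.27 and 1.46. Of this second DHS, the replicate 1 peak (9995621-9995700) lay upstream of that start, 9995560, and only replicate 2 covered it. The region between them, chr16:9994141-9995200, gave 0.809 and 1.006. Peaks covered 1249 bp of the promoter in replicate 1 and 2661 bp in replicate 2. In both libraries this was the most among the 7 genes, and Grin2b came next in replicate 1 with 1160 bp and had 1467 bp in replicate 2. The promoter windows differ in size, 7029 bp for Grin2a and 3623 bp for Grin2b.

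Grin2b, whose GluN2B subunit predominates in the young forebrain, had an arrangement of the same kind. Its highest promoter DHS, chr6:136172141-136172460, lay in intron 1 and gave 1.99 and 2.08 (2.03 ± 0.0619). The DHS upstream of the starts, chr6:136173541-136173820, gave 1.495 and 1.215 and overlaps the annotated gene Gm26653. The DHS over the coding starts at 136173125 and 136173511, chr6:136172721-136173520, gave 0.986 and 0.831. Only its replicate 2 peak reached the start at 136173511, since its replicate 1 peaks ended at 136173480. In both libraries the shared DHSs on either side were therefore higher than this one. In Grin2a the highest site of replicate 1 also lay inside the gene, but that of replicate 2 covered the most 5′ start.

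Grin2d, which encodes GluN2D, had its strongest promoter DHS in a coding exon, at chr7:45866041-45866300, with 2.56 and 2.44 (2.50 ± 0.0808). This DHS counted as a promoter only through the coding start at 45867129, from which its midpoint lay 958 bp downstream. RefSeq places a start at 45866681, and the midpoint of the DHS lay 510 bp downstream of that one. A weaker DHS at chr7:45870358-45870760, beside a further coding start, gave 0.586 and 0.662. The most 5′ annotated start, 45878378, had no peak within 1 kb in either library, so Grin2d would not be accessible if only that start were considered. With a window of 500 bp the mean signal was 0.624, from the weaker DHS.

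Grin3a, which encodes the juvenile GluN3A subunit, had 1 promoter DHS shared by both libraries, chr4:49845681-49845980. It gave 1.80 in replicate 1 and 1.205 in replicate 2 (1.504 ± 0.423), the widest spread of the 5 accessible members. Replicate 1 had 3 lower peaks downstream, of 0.316 to 0.478, that replicate 2 lacked. In the other accessible genes replicate 2 had at least as many promoter peaks as replicate 1. Grin3a is the exception, with 4 and 1.

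**Figure D1:**
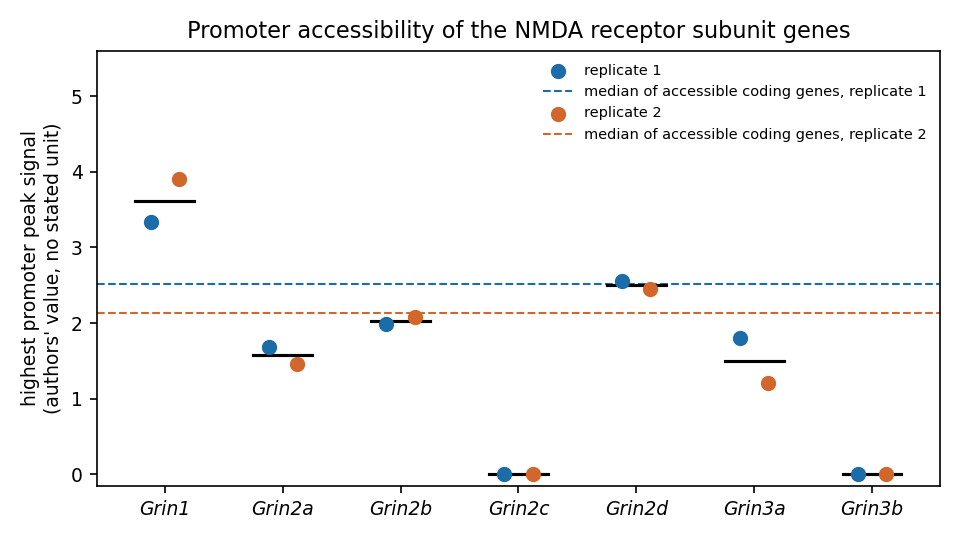
Highest promoter peak signal (authors' value, vertical axis) of each NMDA receptor subunit gene in replicate 1 (blue) and replicate 2 (orange), with the mean of both as a black bar and the median of accessible protein-coding genes per library as dashed lines. Grin1 lies above both medians, Grin2a, Grin2b and Grin3a lie below them, and Grin2c and Grin3b are drawn at 0 because they have no promoter peak.

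By mean promoter signal the order was Grin1, Grin2d, Grin2b, Grin2a and Grin3a. In both libraries Grin1 was highest, followed by Grin2d and then Grin2b. The values of Grin1 did not overlap those of Grin2d, those of Grin2d did not overlap those of Grin2b, and those of Grin2b did not overlap those of Grin2a. Grin2a and Grin3a overlapped and changed places, with Grin3a above Grin2a in replicate 1 and below it in replicate 2. Against all accessible protein-coding genes, Grin2d stood at percentile 53.0, Grin2b at 44.0, Grin2a at 34.3 and Grin3a at 32.6. Each of these orderings rests on 2 libraries, and over all shared DHSs the log2 ratio of replicate 2 to replicate 1 had an SD of 0.515. The order by mean signal also depends on the rule. From the most 5′ start alone, Grin2a (1.365) lay just above Grin2b (1.355), and Grin2d was 0. With a 500 bp window, Grin2d (0.624) was the lowest of the accessible members.

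**Figure D2:**
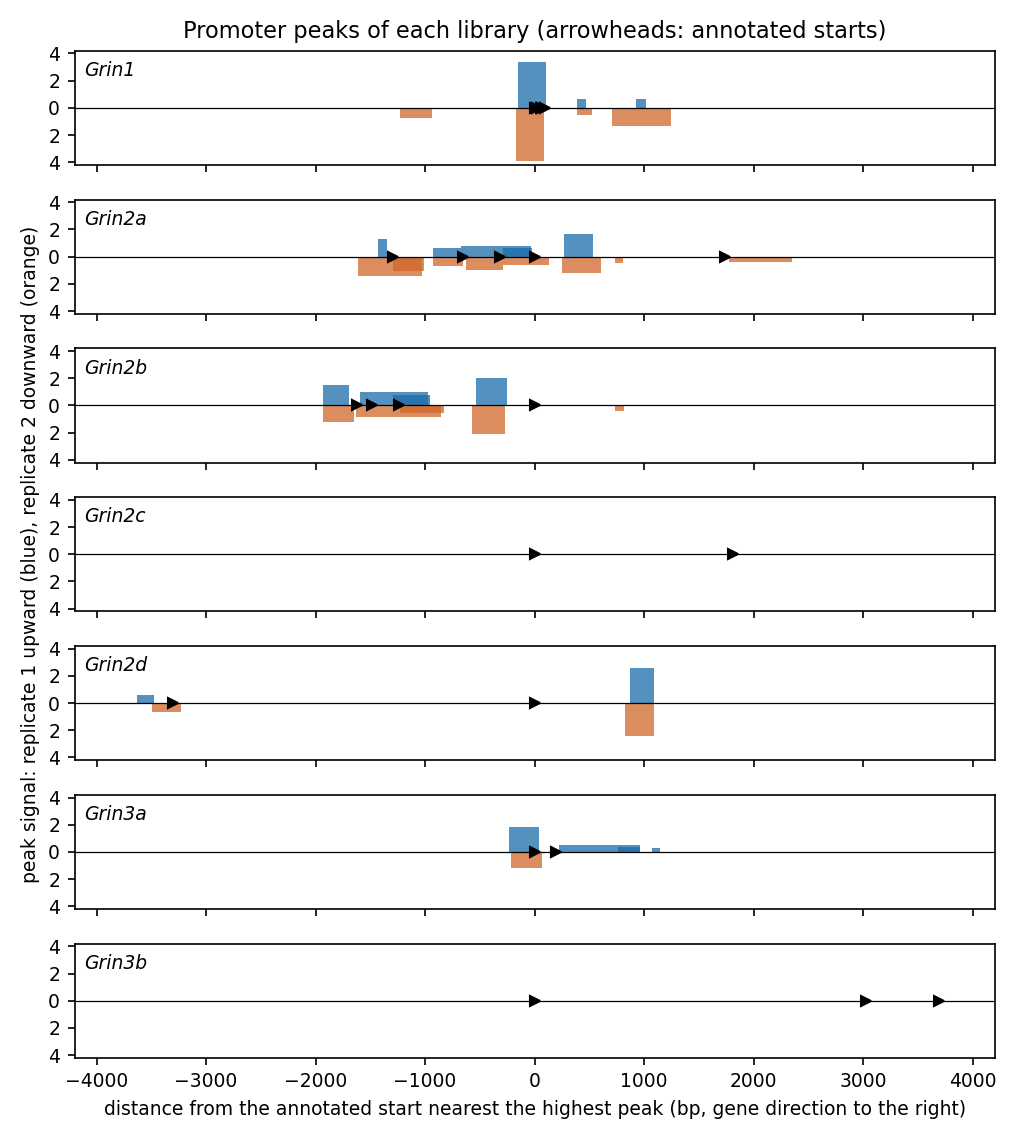
Promoter peaks of each member by distance in bp from the annotated start nearest its highest peak (for Grin2c and Grin3b, which have no peak, from the coding start with the most transcripts or, where equal, the most 5′), with replicate 1 signal drawn upward and replicate 2 signal downward. Arrowheads are annotated starts. Grin1 has 1 dominant peak at its starts, Grin2a and Grin2b have several sites over more than 1 kb, and the high Grin2d peak lies downstream of the start.

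Grin2c and Grin3b had no promoter peak, and a second deposited measure gave the same. It comes from the same 2 libraries, so it is not independent of the peaks. The authors listed genome segments whose local cutting rate had a false discovery rate under 0.05. In the 3815 bp around the starts of Grin2c and the 4674 bp around those of Grin3b, 0 bp were listed in either library. Among protein-coding genes, 64.7% in replicate 1 and 68.8% in replicate 2 had some listed sequence in their promoter windows. By contrast 583 and 1420 bp were listed at Grin1, 2305 and 3353 at Grin2a, 1440 and 1938 at Grin2b, 342 and 518 at Grin2d, and 1409 and 649 at Grin3a. The windows differ in size, so the order by share of the window was another. The shares were 39.8% and 53.5% at Grin2b, 32.8% and 47.7% at Grin2a, and 33.6% and 15.5% at Grin3a. Grin1 had 7.57% and 18.4%, and Grin2d 5.70% and 8.63%. The lowest false discovery rate at a member was 1.04e-38, at Grin1 in replicate 2.

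The peak nearest to a start of Grin2c lay 3338 bp away in both libraries, within the neighbouring gene Fdxr, at chr11:115270581-115270800, with 2.60 and 1.93. Nearest to Grin3b was a peak of 1.495 in Tmem259, 9332 bp away, in replicate 1 and a peak of 0.662 in Wdr18, 1175 bp away, in replicate 2. With the promoter window widened to 2 kb, the Wdr18 peak is counted for Grin3b in replicate 2 alone. Because the depth is unknown, the lack of a peak does not show that these promoters were closed in all cells.

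The promoters without a peak are shown for the density of the dinucleotide CG, which is usual at widely open promoters and is in capitals here. They are RefSeq sequences on GRCm38.p6, read 5′ to 3′ on the gene's strand and ending just before the most 5′ annotated start. Grin2c is chr11:115267244-115267493 on the minus strand and Grin3b is chr10:79970474-79970714 on the plus strand. The table used held Grin1, Grin2c, Grin2d and Grin3b of the 7 members.
Grin2c: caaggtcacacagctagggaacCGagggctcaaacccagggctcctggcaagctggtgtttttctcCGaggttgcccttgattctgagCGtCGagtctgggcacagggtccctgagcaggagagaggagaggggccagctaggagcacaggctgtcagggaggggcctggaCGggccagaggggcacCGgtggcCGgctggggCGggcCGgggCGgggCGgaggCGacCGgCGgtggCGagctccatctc
Grin3b: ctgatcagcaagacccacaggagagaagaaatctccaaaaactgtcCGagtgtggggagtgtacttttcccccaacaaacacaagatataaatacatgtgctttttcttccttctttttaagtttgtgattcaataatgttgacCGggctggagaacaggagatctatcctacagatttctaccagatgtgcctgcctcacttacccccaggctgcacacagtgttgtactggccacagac

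The Grin2c sequence holds 15 CG, most of them near the start, and the Grin3b sequence holds 2. The 250 bases upstream of Grin1 hold 27. Over 500 bp on either side of the most 5′ start, the observed over expected CpG ratio was 0.975 in Grin1, 0.782 in Grin2a, 0.737 in Grin3a, 0.710 in Grin2c, 0.614 in Grin3b, 0.431 in Grin2b and 0.0870 in Grin2d. Of the protein-coding genes within 0.1 of Grin2c in this ratio, 91.4% of 5665 had an accessible promoter, and of those within 0.1 of Grin3b 86.0% of 4403. Grin2c and Grin3b were thus among the minority without one at their CpG content. Grin2b was accessible at a ratio where 61.6% of genes were. Grin2d's ratio is that of its most 5′ start, which had no peak. At its starts with peaks the ratio was 0.417 and 0.323.

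**Figure D3:**
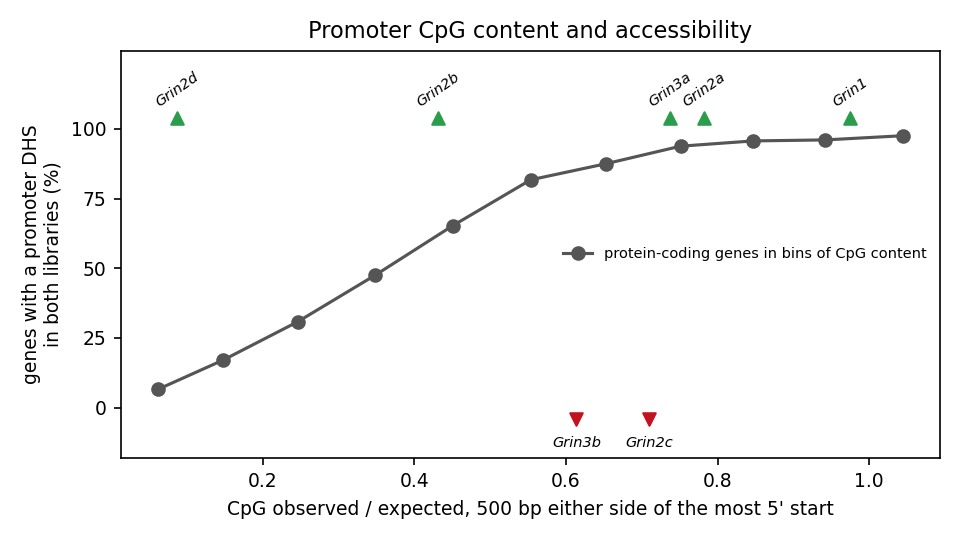
Percent of protein-coding genes with a promoter DHS in both libraries (vertical axis) in bins of the CpG observed over expected ratio around the most 5′ start (horizontal axis, grey line). Members with an accessible promoter are drawn as green triangles above 100% and the 2 without one, Grin2c and Grin3b, as red triangles below 0%, where the grey line lies above 75%.

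Away from starts, 4 of the 7 genes had at least 1 shared DHS in the gene body, beside 37.3% of all protein-coding genes. Such DHSs lie over 1 kb from any annotated start of any gene. There were 25 in all, of which 22 lay in the long genes Grin2a and Grin2b, 2 in Grin3a and 1 in Grin1. Grin2b had 12 in 460.3 kb and Grin2a had 10 in 427.7 kb, or 2.61 and 2.34 per 100 kb. Among protein-coding genes within a factor of 1.5 of their length, the median was 9 (middle 50% from 5 to 13, 423 genes) for Grin2b and 8.5 (5 to 13, 466 genes) for Grin2a. Both genes were inside the middle range of genes of their size. The counts for Grin2b and Grin2a became 6 and 4 with the smaller peak lists, 11 and 5 when 50% of both peaks had to overlap, and 36 and 40 without replicate 1, where their order turned. Genes of like length were not recounted under those settings.

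Grin3a had 2 in 184.1 kb, where the 1267 genes of like length had a median of 4 and a middle range of 2 to 7. Grin2d had none in 46.5 kb, where the median was 1, which put it at percentile 20.3 of the 3846 genes of like length, with ties at their mean rank. Grin1, Grin2c and Grin3b had 1, 0 and 0, with a median of 0 for genes of their lengths. The body of Grin2d does contain 3 shared DHSs within 1 kb of the starts of Kdelr1, the highest at chr7:45872661-45872880 with 2.59 and 2.14. Those were assigned to Kdelr1 and not counted for Grin2d.

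**Figure D4:**
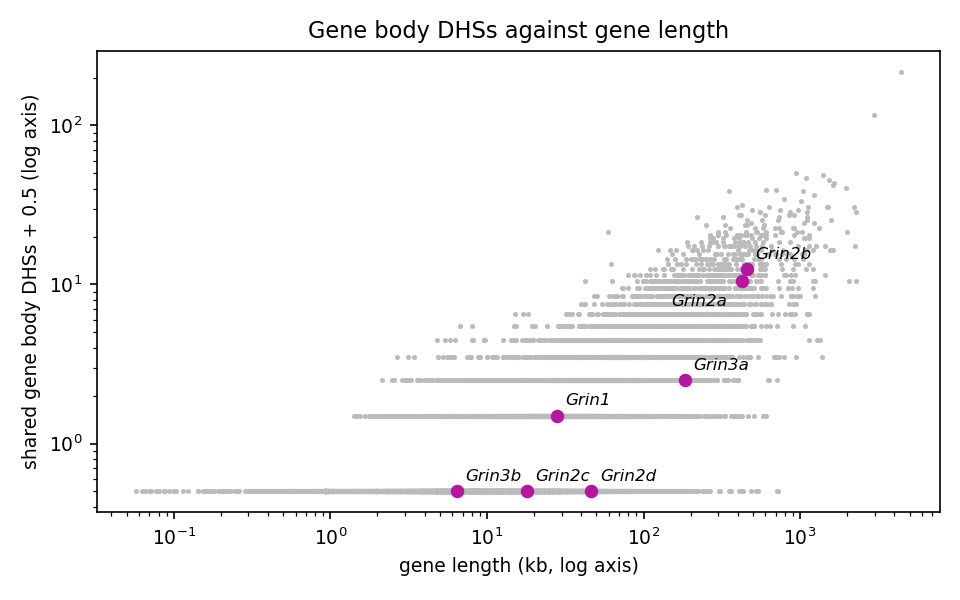
Shared gene body DHSs plus 0.5 (vertical, log axis) against gene length in kb (horizontal, log axis) for protein-coding genes (grey) and the NMDA receptor subunit genes (purple). Grin2a and Grin2b, with 10 and 12 DHSs, lie within the cloud of long genes, and Grin3a, with 2, lies at its lower side.

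The strongest site at any of the long genes was inside Grin2b. The DHS at chr6:135907641-135907860 in intron 4, 264.1 kb from the nearest Grin2b start, gave 2.98 in replicate 1 and 2.70 in replicate 2 (2.84 ± 0.196). Its mean was 1.40 times that of the gene's own highest promoter DHS and stood at percentile 97.9 of the 52908 distal shared DHSs. In both libraries it was higher than each Grin2b promoter DHS. In Grin1, Grin2a and Grin3a the highest distal site was 0.246, 0.694 and 0.407 times the highest promoter DHS.

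Intron 4 of Grin2b, 79.7 kb long, held 6 of the 12 body DHSs. Intron 5 (62.8 kb) held 3, intron 2 (127.1 kb) held 2 and intron 3 (120.4 kb) held 1. After the strongest site came chr6:135859541-135859760 with 1.52 and 1.96, then chr6:135865981-135866200 with 1.06 and 1.2, both in intron 4. Of the 12 sites, 10 lay more than 50 kb from any Grin2b start, so a 50 kb window around the starts held only 2. Introns 4 and 5, shorter than introns 2 and 3, thus held 9 of the 12.

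In Grin2a, intron 3 (230.1 kb) held 5 sites, intron 4 (53.7 kb) held 4 and intron 11 (31.3 kb) held 1. Its highest distal DHS was intergenic, chr16:10033641-10033860, 38.2 kb upstream of the most 5′ start, with 0.686 and 1.32. The next were chr16:9825141-9825400 with 0.801 and 1.2 and chr16:9768301-9768760 with 0.670 and 1.14, both in intron 3. None of the Grin2a sites reached the level of the Grin2b intron 4 site in either library. Of the 11 distal sites in or near Grin2a, 9 were higher in replicate 2, with a median log2 ratio of 0.58, and among the 12 of Grin2b 6 were. Over all distal shared DHSs 51.8% were higher in replicate 2 and the median was 0.03 with an SD of 0.547. The Grin2a values therefore differ between the libraries in 1 direction more often than the Grin2b values, which was not tested.

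**Figure D5:**
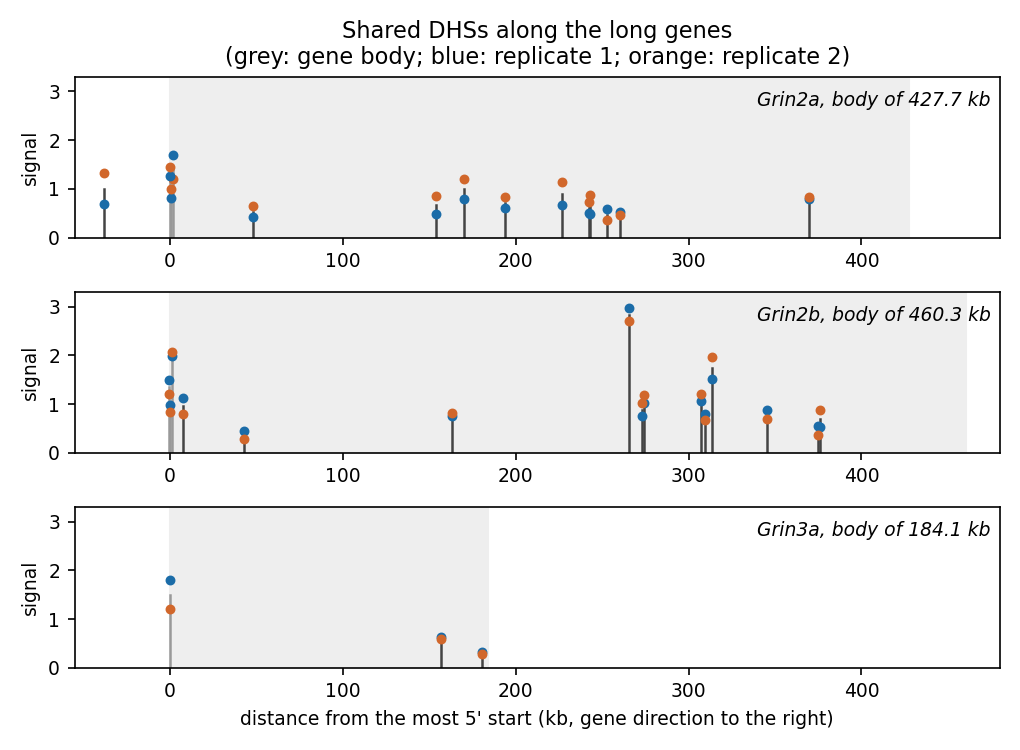
Signal of shared DHSs along Grin2a, Grin2b and Grin3a by distance in kb from the most 5′ start, with the gene body shaded, blue points for replicate 1, orange points for replicate 2 and a stem up to their mean (light grey stems are promoter DHSs). The highest point pair of the Grin2b panel, 2.98 and 2.70, lies deep in the gene and above its promoter DHSs, while Grin3a has 2 low sites far from its start.

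The highest distal sites of Grin2b and Grin2a are shown with the 1 footprint in each that both libraries called, in capitals as before. The Grin2b site had 2 footprints in each library, and the Grin2a site had 1 in replicate 1 and 4 in replicate 2. Both are on the gene's minus strand.
Grin2b intron 4, chr6:135907641-135907860: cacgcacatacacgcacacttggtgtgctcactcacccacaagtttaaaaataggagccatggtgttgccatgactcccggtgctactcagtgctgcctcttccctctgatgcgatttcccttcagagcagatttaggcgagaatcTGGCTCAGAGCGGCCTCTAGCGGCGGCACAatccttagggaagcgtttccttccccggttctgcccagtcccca
Grin2a upstream, chr16:10033641-10033860: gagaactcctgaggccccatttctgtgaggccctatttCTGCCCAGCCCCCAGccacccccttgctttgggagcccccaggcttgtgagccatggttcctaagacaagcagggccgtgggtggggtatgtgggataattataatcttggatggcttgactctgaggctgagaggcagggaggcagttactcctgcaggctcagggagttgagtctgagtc

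The other members had few distal sites of their own. Grin1 had a DHS in intron 20, chr2:25292989-25293175, with 0.909 and 0.871, where the antisense gene Grin1os is also annotated. Its other distal site within 50 kb, chr2:25328614-25328734, gave 0.701 and 0.637 and lay in another gene. In Grin3a, the DHS in intron 6, chr4:49688641-49688960, gave 0.632 and 0.592, and the one in exon 9, in untranslated sequence, gave 0.324 and 0.279. The last is 42 and 56 steps, the weakest shared site of the family.

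Within 50 kb of a start, 6 of the 7 genes had at least 1 distal shared DHS, beside 81.2% of all protein-coding genes. The counts were 8 for Grin2a, 6 each for Grin2c and Grin3b, 2 each for Grin1 and Grin2b, 1 for Grin3a and 0 for Grin2d, a mean of 3.57 against 3.21 over all protein-coding genes. The Grin2a count depends on the rule: it was 2 from the most 5′ start alone, since an internal start of a non-coding transcript at 9797333 also counts, 3 when 50% of both peaks had to overlap, 4 with the smaller peak lists and 19 without replicate 1. All 6 near Grin2c lay in other genes, Tmem104, Fdxr and Fads6. After the Fdxr site named above came chr11:115225001-115225200 in Tmem104, with 0.940 and 1.15, and chr11:115286481-115286964 in Fads6, with 0.701 and 1.07. Of the 6 near Grin3b, 3 lay in Arid3a and 3 in no gene, and the highest, chr10:79925361-79925600, gave 5.21 and 3.26. The next were chr10:79987101-79987300 with 2.65 and 2.86 and chr10:79934361-79934720 in Arid3a with 1.71 and 1.29. The genes without an open promoter thus had open sites nearby, but the neighbourhoods are dense with other genes. The regions of Grin1, Grin2c, Grin2d and Grin3b also held 11, 2, 9 and 11 shared DHSs at starts of other genes, and those of Grin2a, Grin2b and Grin3a held none. Which gene a distal DHS acts on was not measured.

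Many distal peaks at these genes appeared in replicate 2 alone. Of its 120 peaks away from starts in or near the members, 80 (66.7%) had no counterpart in replicate 1, while 4 of 44 (9.09%) in replicate 1 had none in replicate 2. Over all distal peaks the shares were 60.57% and 10.02%. Grin2a had 31 and Grin2b 26 of the sites seen in replicate 2 alone. The shares at the members were near those of the whole libraries, which differ in the number of peaks called.

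Footprints inside the shared DHSs of the members repeated between libraries only in part. The 12 promoter DHSs held 49 footprints in replicate 1 and 69 in replicate 2, of which 57.1% and 37.7% overlapped a footprint of the other library. In the 39 distal DHSs there were 64 and 124, with 70.3% and 32.3% overlapping. In all shared DHSs the shares were 65.9% and 45.3%. For that reason capitals in the printed sequences mark only what both libraries called.

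Recognition sequences were searched on both strands in the 300 bp around the centre of each shared DHS, and a match is only a match of letters. A DHS is counted below if its window holds a match, which can lie outside the DHS itself. The GC box GGGCGG was present in 6 of 12 promoter DHSs, where 50.8% of all promoter DHSs have it, and in 3 of 39 distal ones, where 10.1% have it. Besides the Grin1 match, the one in Grin2d at chr7:45866073-45866078 lay in footprints of both libraries. The E-box CAGATG, which neuronal basic helix-loop-helix factors bind, was in 2 of 12 promoter and 16 of 39 distal DHSs (15.2% and 31.5% of all). The Grin2b promoter copy, chr6:136172294-136172299, lay in footprints of both libraries and begins a run of capitals in the sequence above. A distal copy near Grin3b, chr10:79987203-79987208, also lay in footprints of both libraries. The E-box CAGCTG was in 1 of 12 and 13 of 39 (19.1% and 25.6% of all). The CCAAT box was in 3 of 12 and 18 of 39 (33.4% and 32.1%). Its copy in Fdxr near Grin2c, chr11:115270711-115270715, lay in footprints of both libraries.

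The AP-1 site TGANTCA, bound by Fos and Jun, was in the windows of 0 of 12 promoter and 9 of 39 distal DHSs (5.77% and 13.5% of all). At the Grin2a upstream DHS, at chr6:135900512-135900760 and chr6:136130561-136130742 in Grin2b, and in Fdxr near Grin2c, no match lay wholly inside the DHS. None of these AP-1 matches lay in footprints of both libraries, and the one at the edge of the Grin2a upstream DHS lay in a footprint of replicate 2 alone. The T-box TCACACCT was in 1 of 12 and 1 of 39 (0.657% and 1.26% of all) and in no footprint. NFI matched 1 distal window, outside the DHS itself, beside 1.47% of all distal DHSs. REST with up to 3 mismatches, RFX, NRF1, MEF2, EGR (GCGTGGGCG), CRE (TGACGTCA) and ETS (CCGGAAGT) matched none of the windows. Over all shared DHSs they were rare too, in that order 0.115%, 2.48%, 1.67%, 1.07%, 0.516%, 1.15% and 1.77%. In promoter DHSs alone the highest shares were 4.6% for ETS and 4.56% for NRF1. At such shares, no match in 12 promoter and 39 distal windows is near the background.

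The consensus of CTCF, an architectural and insulator protein, matched 3 of 39 distal and 0 of 12 promoter DHSs (8.86% and 3.55% of all). The matches lay in Grin1 intron 20, in Grin2a intron 4 and in Tmem104 near Grin2c. The Grin1 and Tmem104 matches were wholly inside footprints of both libraries. The Grin2a match was inside a footprint of replicate 2. Footprints of replicate 1 touched it on either side and left out bases at its centre. Both sites in member genes are shown with 5 bases on either side on the genes' minus strand, capitals marking footprints of both libraries.
Grin1 intron 20, chr2:25293045-25293068: aacCCCCACTAGGGGGCGCAGGGG
Grin2a intron 4, chr16:9735448-9735471: aaatGGTGCCCCctgCTGGGCTgg

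With 1 mismatch allowed, a setting chosen after the footprint sequences had been seen, the CTCF consensus matched 10 of 39 distal DHSs, beside 25.3% of all distal DHSs, and 1 of 12 promoter DHSs, beside 14.5%. These shares are near the background. The matches included the Grin2b intron 4 site at chr6:135907692-135907705 and the Grin2a promoter DHS at chr16:9993891-9993904, each wholly inside footprints of both libraries and part of the capitals shown above.

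The other ionotropic glutamate receptor genes were accessible without exception, 11 of 11, beside 62.7% of all protein-coding genes. They comprised 4 AMPA, 5 kainate and 2 delta receptor genes, a list set with earlier results of these data known. By the mean of both libraries the highest were Gria2, an AMPA subunit that limits calcium entry, with 2.87 and 3.24, then Grik4 with 2.12 and 1.52 and Grik2 with 2.03 and 1.13, although Grik2 lay below Gria4, Gria1 and Grik5 in replicate 2. Grin1 was above all of them in both libraries. The median promoter signal was 1.23 in that list, 1.57 in the NMDA list and 1.02 over all protein-coding genes. Genes without a promoter peak enter these medians as 0. Over accessible protein-coding genes alone the medians were higher, 2.51 in replicate 1 and 2.13 in replicate 2. The median number of body DHSs was 7 in that list and 1 in the NMDA list, which differ in gene length.

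Of 20 genes for proteins that act with the receptor, 19 had an accessible promoter, beside the same 62.7% of all protein-coding genes. This list too was chosen with earlier results of these data known. The exception was Dao, the enzyme that degrades D-serine, with no peak in either library. The highest signals were 5.29 and 5.06 at Dlg2, a scaffold of the postsynaptic density, 5.09 and 4.85 at Fyn, and 4.37 and 3.62 at Src, both kinases that phosphorylate GluN2 subunits. Srr, which makes D-serine, gave 3.12 and 2.78, and Dlg4, the scaffold PSD-95, gave 2.73 and 3.28. The median promoter signal of the list was 1.33, with Dao entered as 0. The median number of distal DHSs was 5.5, against 3 over all protein-coding genes.

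For each accessible member the most similar protein-coding gene was found by the mean difference of percentile ranks over 6 measures: promoter signal and promoter footprints in each library, body DHSs and distal DHSs, all in the 2 libraries. These were Kif1c for Grin1 (3.09 percentile points), Fgf14 for Grin2a (1.06), A830018L16Rik for Grin2b (2.05), Mettl5 for Grin2d (1.24) and Chrna7 for Grin3a (1.53). Fgf14 had 1.71 and 1.56 at its promoter with 15 body and 9 distal DHSs, beside 10 and 8 for Grin2a. The likeness describes these libraries only.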

How the data were processed

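DNase-seq of 2 cortex libraries, 1 group, was used. Per the deposited notes, peaks and footprints were called by the authors for each library separately, on reads aligned to mm10. Aligner and callers: not given in the sources used here. Each peak was deposited with a signal of no stated unit, alongside segments with a false discovery rate (a q-value) of the cutting rate, listed below 0.05, and footprints whose p-value column is 0.01 throughout, so they could not be ranked. All peak signals lay within 0.1 of a whole step. Of 2 peak lists per library the larger was used.

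Peaks overlapping by at least 1 bp were merged across libraries. Genes came from GENCODE M21, sequences from GRCm38.p6. How the CAST/EiJ allele aligns to mm10 and affects calls was not tested. Peaks of 1 library can overlap, so peak counts are not counts of elements. Body and distal DHSs were placed by midpoint. Footprint counts of a promoter take those inside peaks within the window. Matplotlib 3.10.9, pandas 2.3.3, NumPy 2.4.6 and Python 3.11.15 were used, and interval functions were tested on simulated data. Members were taken by name as a complete family, and members, lists and motifs were all set with earlier results of these data known. Named were all 7 members, their highest promoter DHS and up to 3 highest distal DHSs, the most similar gene, and of each other list genes with no promoter peak and the 3 highest. Srr, Dlg4 and other promoter DHSs were named beyond that rule after their values were seen. Alternatives covered peak list, equal peak numbers, overlap, windows, distances, starts and single libraries.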

Additional observations from a re-analysis of the deposited data

How the results depend on the processing

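The counts of 5 of 7 genes with an accessible promoter and with promoter footprints in both libraries were 5 under each alternative run except the most 5′ start alone, which gave 4 for both, since Grin2d has no peak there. The 25 body DHSs became 11 with the smaller, stricter peak lists, and ranged from 28 to 87 with 1 library left out, where shared calls are no longer required. The 25 distal DHSs within 50 kb became 13 with the smaller lists, 8 within 20 kb and 51 within 100 kb, and ranged from 29 to 64 with 1 library left out. From the most 5′ start alone, the mean promoter signal became 1.36 for Grin2a, 1.35 for Grin2b and 0 for Grin2d, and with a 500 bp window 0.624 for Grin2d. Grin3b reached 0.331 with a 2 kb window, and Grin2c stayed at 0 in the settings run for it. No paired analysis was possible because there is 1 group of 2 libraries. Depth is unknown, and replicate 1 has fewer peaks, so shared DHSs are limited by that library.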
